A study of Mus musculus with 232 samples.

Results

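Adult-type astrocytes, the cluster that the authors named Astro-adult, were 1232 of 24185 cells from the mouse dentate gyrus. They were taken as every cell whose deposited cluster name was exactly Astro-adult, at any age. They were found at 5 postnatal ages, with 17 cells at P18, 143 at P19, 15 at P23, 324 at P120 and 733 at P132. P18 and P23 were pools of male CD-1 mice and P19 was a pool of female C57Bl/6 mice, none of them sorted. P120 was a pool of 2 males and 1 female, and P132 of 3 males and 1 female, of the hGFAP-GFP line, which carries green fluorescent protein under the human GFAP promoter. Only GFP-positive cells of the hGFAP-GFP mice were captured, so line, sort and stage cannot be told apart. Astro-juv, the other large astrocyte cluster of the authors, held 821 cells, and the oligodendrocyte precursors (OPC) held 794. Each age was 1 pool of animals, so ages stood as replicates of the juvenile stage (P18, P19, P23) and the adult stage (P120, P132). The p-values rest on spread between these pools only, which edgeR shared across genes in its main fits.

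Astrocytes take up glutamate and GABA from around synapses, buffer potassium and water, couple to each other through gap junctions, and supply neurons with lactate, cholesterol and matrix proteins. In the dentate gyrus they share Gfap and several other genes with the radial glia-like stem cells (RGL) of the same region. The names Astro-juv and Astro-adult are the authors', and both clusters were present at each of the 5 ages.

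The 4 markers of the cluster were all present. Slc1a2 encodes the main glial glutamate transporter, Aqp4 the water channel of astrocyte endfeet, Gfap the astrocyte intermediate filament and Grin2c an NMDA receptor subunit. Over the pooled UMIs (unique molecular identifiers, each counting 1 captured RNA molecule) of these 5 ages, Astro-adult ranked at place 2 of 19 clusters for each of the 4 genes, and Astro-juv at place 1. Pooled levels in Astro-adult were 15162 CPM (counts per 1000000 UMIs) for Slc1a2, 1439 for Aqp4, 973 for Gfap and 358 for Grin2c. In Astro-juv they were 15612 for Slc1a2, 2748 for Aqp4, 1376 for Gfap and 365 for Grin2c. Pooled levels weight the ages by their cells, which were mostly adult in Astro-adult and mostly juvenile in Astro-juv.

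Within single ages the clusters differed most in Gfap and Aqp4. Gfap in Astro-adult was 495 CPM at P18, 397 at P19, 435 at P23, 681 at P120 and 1255 at P132, and both adult values lay above the 3 juvenile ones. In Astro-juv, Gfap was 1467, 1701, 970, 4650 and 3817 CPM at those ages, higher than in Astro-adult at each. Aqp4 in Astro-adult was 1146, 1334, 913, 856 and 1747 CPM in the same order, with the P120 value lowest and the P132 value highest, so the stages overlapped. In Astro-juv, Aqp4 was 2813, 2798, 2471, 3559 and 5048 CPM. Slc1a2 in Astro-adult ran from 9589 CPM at P120 to 17789 at P132, and it was below Astro-juv at the 3 juvenile ages and above it at the 2 adult ages. Grin2c in Astro-adult was 248, 321, 196, 392 and 358 CPM in the same order, against 349, 331, 394, 94.9 and 248 in Astro-juv, so it too was lower than Astro-juv at the juvenile ages and higher at the adult ages. The Astro-juv cluster held only 9 cells (21075 UMIs) at P120, so its values there are imprecise.

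**Figure D1:**
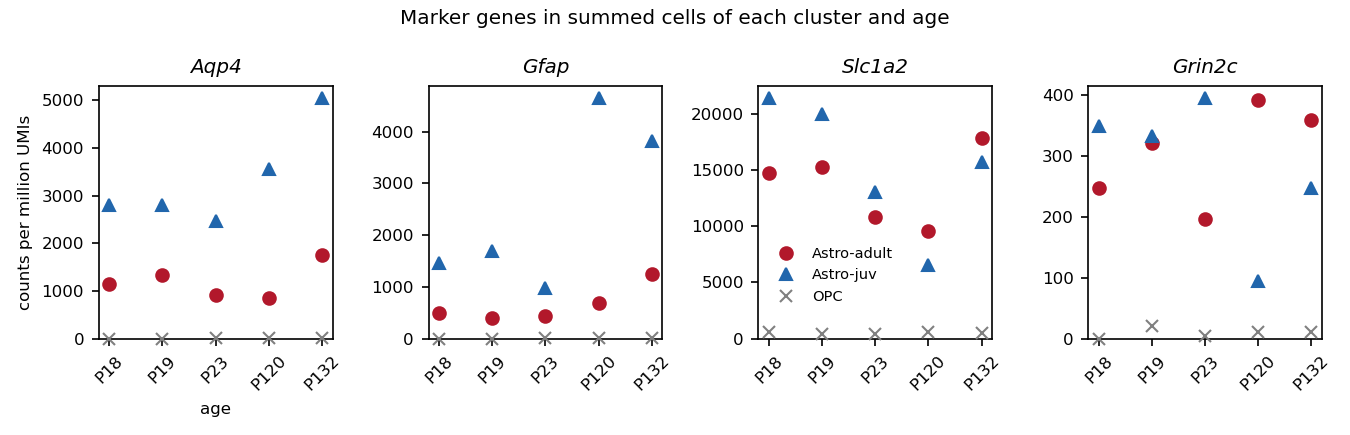
Level of 4 astrocyte markers in CPM (vertical axes) at 5 ages (horizontal axes), 1 point per age for the summed cells of Astro-adult, Astro-juv and OPC. Aqp4 and Gfap were lower in Astro-adult than in Astro-juv at each age, and OPC lay near 0 for Aqp4, Gfap and Grin2c.

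Cells thinned to 1000 UMIs each, so that depth was equal, showed the same order for Gfap. A Gfap UMI was found in 5 of 17 Astro-adult cells at P18 (29.4%), 37 of 143 at P19 (25.9%), 6 of 15 at P23 (40.0%), 134 of 324 at P120 (41.4%) and 448 of 733 at P132 (61.1%). The shares in Astro-juv were 59.3%, 56.7%, 45.9%, 100% (9 of 9) and 93.5%. Granule cells, which are neurons and should lack Gfap, had such a UMI in 0.707% to 2.00% of thinned cells, read here as background. Before thinning, median depths were 1648 to 2872 UMIs in Astro-adult and 1988 to 5680.5 in granule cells. Without thinning the Gfap share in Astro-adult was 41.2%, 40.6%, 60.0%, 57.4% and 77.5% at the 5 ages. Slc1a2 had a UMI in every thinned Astro-adult cell, against 22.7% to 34.0% of granule cells.

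Astro-adult cells held 32299 UMIs in all at P18, 274274 at P19, 46016 at P23, 587344 at P120 and 1314043 at P132. Their median UMIs per cell were below those of Astro-juv at every age (1876 to 3434). Of 23725 barcodes, 456 occurred in more than 1 library, and 35 Astro-adult cells had a barcode that another library also held. No Astro-adult cell had over 3 times the median UMIs of its age. Levels of Y-linked Ddx3y went with the labelled sex, with 0 UMIs in Astro-adult cells of the female P19 pool.

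RNA of other cell types was not even across ages. The 18 neuron genes summed to 1703 CPM at P18, 868 at P19 and 1782 at P23, against 400 at P120 and 982 at P132, so that P132 lay above P19. Of the 18, 5 were at 0 at P18, 0 at P19, 6 at P23, 2 at P120 and 0 at P132. Genes of microglia and macrophages summed to 391 CPM at P23 and to 63.0 to 124 at the other ages, and those of oligodendrocytes to 433 to 717. The 10 genes of endothelium and mural cells were all at 0 at P18 and summed to at most 86.9 CPM. Cells with 3 or more UMIs from any 1 list of neurons, oligodendrocytes, OPC, microglia, endothelium or blood were 52.9% of Astro-adult cells at P18, 33.6% at P19, 66.7% at P23, 14.8% at P120 and 29.5% at P132. The 8 mitochondrial transcripts summed to 52055 CPM at P120, against 138498 at P132 and 148023 to 193911 at the juvenile ages, and thus P120 stood apart from the other ages.

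**Figure D2:**
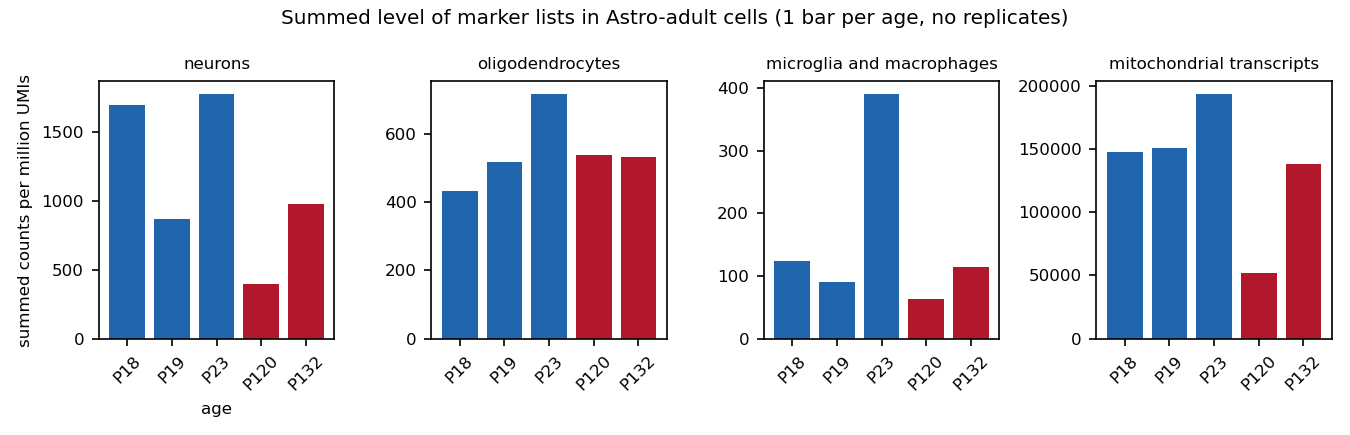
Summed level of the genes of 4 lists in Astro-adult cells, in CPM (vertical axes), with 1 bar per age and no replicates (juvenile ages blue, adult ages red). Neuron genes were lowest at P120 (400) and highest at P23 (1782), and mitochondrial transcripts were lowest at P120.

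The labels order the samples by age, and the first comparison asked how the 2 astrocyte clusters shared the astrocytes at each age. Astro-adult was 7.87% of Astro-adult and Astro-juv cells at P18 (17 of 216, 95% exact binomial interval 4.65 to 12.3%) and 48.8% at P19 (143 of 293, 42.9 to 54.7%). It was 3.74% at P23 (15 of 401, 2.11 to 6.09%), 97.3% at P120 (324 of 333, 94.9 to 98.8%) and 90.5% at P132 (733 of 810, 88.3 to 92.4%). These intervals cover counting error only. The adult ages averaged 93.9% ± 4.81 (SD, n = 2) and the juvenile ages 20.1% ± 24.9 (SD, n = 3). Every adult value lay above every juvenile one, and the exact two-sided permutation test gave p = 0.2, the smallest p that 2 against 3 ages allow. The P19 pool stood far above P18 and P23, and without it the juvenile mean was 5.81% ± 2.92 (SD, n = 2). P19 was also the only C57Bl/6 and the only female pool. The granule cells split in a like order: GC-adult, the adult-type granule cells, were 9.21% of GC-adult and GC-juv at P18, 27.5% at P19, 1.54% at P23, 90.0% at P120 and 94.6% at P132. The authors drew and named these clusters on these same cells, so the order of the shares is no independent evidence of stage. How far line, sex, library or sort set these shares was not tested. The sort took GFP-positive cells, and it acted on the adult ages only.

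**Figure D3:**
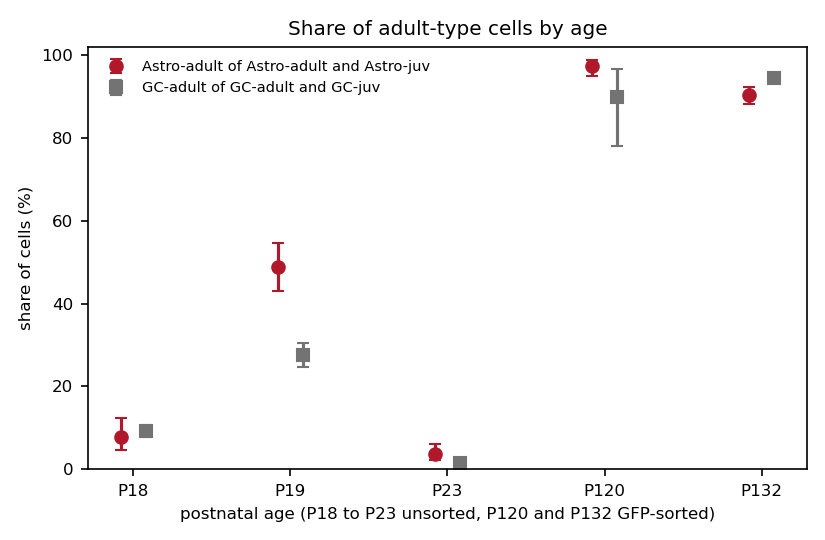
Share of Astro-adult among Astro-adult and Astro-juv cells and of GC-adult among granule cells, in percent (vertical axis), at 5 ages, with 95% exact binomial intervals. Both shares were low at P18 and P23, intermediate at P19 and at least 90.0% at P120 and P132.

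The second comparison asked which genes of Astro-adult cells differed between adult and juvenile ages. Against P19, adult Astro-adult cells had more Lgals1, Prelp, Nnat and Serpina3n RNA, and less Sox11, Marcksl1, Ndrg4, Nrgn and Rbm4b RNA. Only P19 had the 20 cells set as the minimum among the juvenile ages, so P120 and P132 were tested against P19 alone. Of 8346 genes tested, edgeR's quasi-likelihood test with Benjamini-Hochberg adjustment called 41 (0.491%), 24 higher (0.288%) and 17 lower (0.204%), at an adjusted p under 0.05. The lone juvenile age was assumed to vary as the adult ages do, and 465 genes had an unadjusted p under 0.05. With no filter on low counts 0 genes were called (479 at an unadjusted p under 0.05), and DESeq2 called 6, all of them among the 41.

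A second fit took all ages with 10 or more cells, chosen after the cell numbers were seen, and so set P120 and P132 against P18, P19 and P23. It tested 4913 genes and called 55 (1.12%), 23 higher (0.468%) and 32 lower (0.651%), and DESeq2 called 3 higher and 11 lower. The fits shared 21 calls, 51.2% of the 41 and 38.2% of the 55. Of the 41 calls against P19, 23 kept both adult ages on 1 side of all 3 juvenile ages. The remaining 18 did not, as with Y-linked Ddx3y, absent from the female P19 pool. Without P120 the second fit called 10 genes higher and 8 lower, without P18 it called 20 and 11, without P19 9 and 24, without P23 15 and 33, and without P132 20 and 16.

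Lgals1, which encodes the sugar-binding protein galectin-1, was 0 CPM at P18, 14.6 at P19 and 21.7 at P23, against 194 at P120 and 104 at P132. Both adult values were several times the highest juvenile value. The juvenile values of Lgals1 rested on 0, 4 and 1 UMIs, so the size of this gap is imprecise. The stage tests named only genes whose stages did not overlap. The log2 difference from P19 was 3.28 (SE 0.74, edgeR adjusted p = 0.0037), and in the 5-age fit it was 3.34 (SE 0.62, adjusted p = 4.2e-05). Prelp, which encodes a small leucine-rich matrix proteoglycan, was 30.96 CPM at P18, 14.6 at P19 and 21.7 at P23, against 138 at P120 and 123 at P132. Its adult values lay close together, and the stages did not overlap. The juvenile values of Prelp rested on 1, 4 and 1 UMIs, too few to show how close they lay. The log2 difference was 3.12 from P19 (SE 0.73, edgeR adjusted p = 0.00716) and 2.87 over 5 ages (SE 0.61, adjusted p = 0.000695). Lgals1 and Prelp lay on chromosome 15 at 78926725 to 78930465 and on chromosome 1 at 133910304 to 133921414 (mm10, GENCODE vM21).

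Serpina3n encodes a secreted protease inhibitor that reactive astrocytes are known to raise. It was 0 CPM at P18, 29.2 at P19 and 0 at P23, against 209 at P120 and 125 at P132. Its log2 difference from P19 was 2.46 (SE 0.65, edgeR adjusted p = 0.0332) and over 5 ages 2.92 (SE 0.56, adjusted p = 5.71e-05). Nnat, encoding the membrane proteolipid neuronatin, was 310 CPM at P18, 109 at P19 and 261 at P23, against 931 at P120 and 459 at P132. P120 was highest and P19 lowest, and the stages did not overlap. Its log2 difference was 2.61 from P19 (SE 0.62, edgeR adjusted p = 0.00719) and 1.88 over 5 ages (SE 0.41, adjusted p = 0.0014). Nnat lies inside Blcap, which is on the opposite strand, and the strand setting of the counting is not given in the sources used here.

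The long noncoding RNA Gm11681 (chromosome 11, 112792731 to 112799008) had 0 UMIs at P18, 1 at P19 and 1 at P23, against 79 at P120 and 137 at P132. The adult level was 31.2 times that at P19, with a counting interval of 5.53 to 1236 from the single UMI. In Astro-juv it was 12.5 CPM at P18, 21.7 at P19 and 35.0 at P23, against 96.3 at P132, and in OPC it was at most 24.6. Gm10709, a processed pseudogene, was 217 CPM at P18, 3.65 at P19 and 130 at P23, against 351 at P120 and 272 at P132. P19 was thus set apart from the other juvenile ages, and the gene was also low at P19 in Astro-juv (0 UMIs, against 160 CPM at P18) and OPC (20.5 CPM, against 467 at P18). Gm10709 shared 87.1% of its 31-base words with Gm6344, so its counts are uncertain.

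The 5-age fit named 5 more genes as higher. Kcnj16, a subunit of inwardly rectifying potassium channels, was 30.96 CPM at P18, 29.2 at P19 and 21.7 at P23, against 140 at P120 and 163 at P132, a log2 difference of 2.42 (SE 0.54, edgeR adjusted p = 0.00149). The juvenile values rested on 1, 8 and 1 UMIs, too few to show how close they lay, and the stages did not overlap. Them4, an acyl-CoA thioesterase, was 30.96 CPM at P18, 80.2 at P19 and 0 at P23, against 289 at P120 and 232 at P132, a log2 difference of 2.15 (SE 0.44, adjusted p = 0.000426 by edgeR). The annexin partner S100a10 was 43.8 CPM at P19 and at 0 at P18 and P23, against 209 at P120 and 87.5 at P132. Annexin A5 (Anxa5), which binds phosphatidylserine, was 58.3 CPM at P19 and at 0 at P18 and P23, against 141 at P120 and 199 at P132. The log2 differences were 2.18 for S100a10 (SE 0.52, edgeR adjusted p = 0.00445) and 2.06 for Anxa5 (SE 0.48, edgeR adjusted p = 0.00356). P18 and P23 held few UMIs: a count of 3 is worth 92.9 CPM at P18 and 65.2 CPM at P23, so the zeros there do not show absence. Without P19, the juvenile ages of S100a10, Anxa5 and Serpina3n are all at 0, and the fitted log2 differences (9.14, 9.40 and 9.33) then depend on the prior count. Gm8730, a retrocopy with 62.8% of its 31-base words in the ribosomal gene Rplp0, is uncertain (30.96, 69.3 and 0 CPM at the juvenile ages, 284 and 306 at the adult ages).

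**Figure D4:**
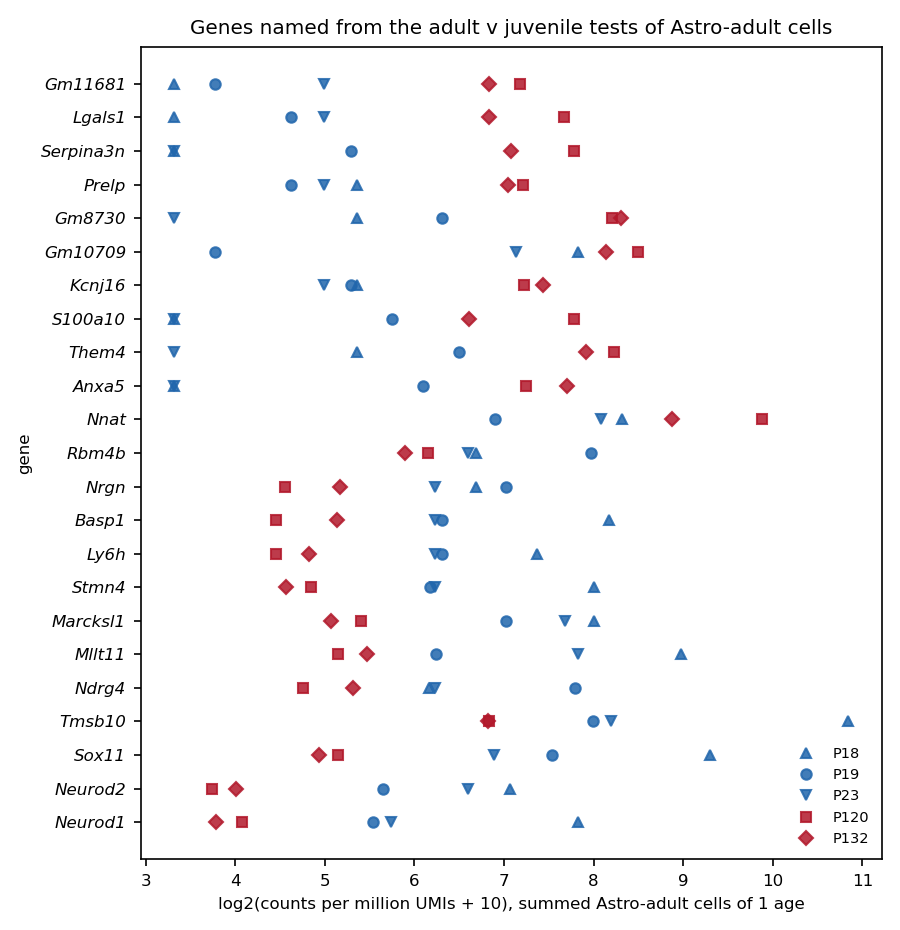
Level of genes named from the adult v juvenile tests, as log2(CPM + 10) on the horizontal axis, with 1 point per age for summed Astro-adult cells (juvenile ages blue, adult ages red). The genes were chosen so that both adult points lie on 1 side of the 3 juvenile points, and P18 lies farthest to the right for Tmsb10.

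Among the genes lower at the adult ages, Sox11, a transcription factor of immature neurons and progenitors, had the smallest p of the 5-age fit. It was 619 CPM at P18 (20 UMIs), 175 at P19 (48 UMIs) and 109 at P23 (5 UMIs), against 25.5 at P120 and 20.5 at P132. P18 was highest, and the lowest juvenile value was several times the higher adult one. The log2 difference was -2.96 from P19 (SE 0.50, edgeR adjusted p = 4.61e-06) and -3.41 over 5 ages (SE 0.46, adjusted p = 4.36e-10). In Astro-juv, Sox11 was 26.6 to 35.3 CPM at the juvenile ages and 34.4 at P132, so the juvenile Astro-adult cells were above Astro-juv of their own libraries. Marcksl1, an actin-binding substrate of protein kinase C, was 248 CPM at P18, 120 at P19 and 196 at P23, against 32.3 at P120 and 23.6 at P132. The adult values of Marcksl1 lay close together below the juvenile ones. Its log2 difference from P19 was -2.15 (SE 0.51, edgeR adjusted p = 0.00851), and -2.54 over 5 ages (SE 0.48, adjusted p = 4.35e-05).

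Ndrg4 was 61.9 CPM at P18, 211 at P19 and 65.2 at P23, against 17.0 at P120 and 29.7 at P132, a log2 difference of -3.10 from P19 (SE 0.49, edgeR adjusted p = 3.63e-07). P19 stood above the other juvenile ages. Nrgn, the calmodulin-binding neuronal protein neurogranin, was 92.9, 120 and 65.2 CPM at the juvenile ages, against 13.6 at P120 and 25.9 at P132, and its log2 difference from P19 was -2.51 (SE 0.52, edgeR adjusted p = 0.000763). For Rbm4b, an RNA-binding protein, the values were 92.9, 241 and 86.9 CPM at the juvenile ages and 61.3 and 49.5 at the adult ages (log2 difference -2.15, SE 0.48, edgeR adjusted p = 0.00272). Rbm4b shares 3.96% of its 31-base words with its paralog Rbm4.

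The 5-age fit further named Neurod1, Neurod2, Tmsb10, Mllt11, Stmn4, Ly6h and Basp1 as lower. Neurod1 and Neurod2, transcription factors of the granule cell lineage, rested on 2 to 11 UMIs at each age, for example 7 UMIs of Neurod1 at P18 (217 CPM) and 5 at P132 (3.81 CPM). Tmsb10, the actin-binding thymosin beta 10, was 1827 CPM at P18, 244 at P19 and 283 at P23, against 104 at P120 and 102.7 at P132. P18 was far above the other ages, and the log2 difference was -2.63 in the 5-age fit (SE 0.41, edgeR adjusted p = 2.97e-07). Without P18 it was -1.34 and the call was lost. Mllt11 was 495, 65.6 and 217 CPM at the juvenile ages and 25.5 and 34.2 at the adult ages. Basp1, a protein of growing axons, was 279, 69.3 and 65.2 CPM at the juvenile ages and 11.9 and 25.1 at the adult ages. Tmsb10 is uncertain, since 27.0% of its 31-base words are also in Gm9844. In OPC, Tmsb10 was 781 to 1820 CPM and Basp1 247 to 384 CPM over the 5 ages.

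The summed neuron genes were lower at both adult ages than at P18 and P23, but against P19 they were lower at P120 and higher at P132. Their part in these falls was not tested beyond leaving out cells. That removal took 33.6% of Astro-adult cells at P19, 14.8% at P120 and 29.5% at P132. Nrgn is itself in the neuron list that helped pick the cells, so its own result was partly set by the removal. Without the 331 Astro-adult cells that held 3 or more UMIs of another cell type's list, the test against P19 called 10 genes higher and 10 lower. Of the named genes, Ndrg4, Marcksl1 and Rbm4b stayed called as lower. Sox11 (log2 difference -1.75, edgeR adjusted p = 0.669) and Nrgn (-2.32, adjusted p = 0.222) did not. Nnat, Gm11681 and Gm10709 stayed called as higher, whereas Lgals1 (2.80, adjusted p = 0.0554), Prelp (2.95, adjusted p = 0.0597) and Serpina3n (1.99, adjusted p = 0.289) did not. In the 5-age fit this removal was not run, since it left 8 cells at P18 and 5 at P23. DESeq2 ended the calls against P19 of Gm11681, Lgals1, Prelp, Serpina3n, Sox11, Nrgn, Marcksl1 and Rbm4b. In the 5-age fit it ended those of Lgals1, Serpina3n, Prelp, Gm10709, Kcnj16, S100a10, Them4, Anxa5, Tmsb10, Ndrg4, Ly6h and Basp1. Gm8730, Sox11 and Marcksl1 stayed called in each of the 12 alternatives of the 5-age fit in which they were tested. Among these was the limit on high-UMI cells, which removed no Astro-adult cell and repeated the main fit. Leaving out P19 ended the calls of Gm11681, Lgals1, Prelp, Gm10709, Kcnj16, Ndrg4 and Ly6h. Leaving out P18 ended those of S100a10, Neurod1, Neurod2, Tmsb10, Mllt11, Stmn4, Ly6h and Basp1, and leaving out P23 those of S100a10 and Anxa5. Without P19 the log2 difference was 0.92 for Gm10709, 3.22 for Gm11681, 4.34 for Them4, 4.53 for Gm8730 and -1.33 for Ndrg4. Without P18 it was 3.50 for Gm10709, -1.78 for Mllt11, -2.92 for Neurod1 and -2.79 for Sox11. Without P120, Lgals1, S100a10, Neurod1, Neurod2, Stmn4, Ly6h and Basp1 were lost, and without P132, Anxa5, Neurod1, Neurod2, Stmn4 and Ly6h.

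Of the listed genes of astrocyte function, Kcnj16, S100a10 and Serpina3n were called in the 5-age fit, all higher, where 0.468% of all tested genes were called higher and 0.651% lower. Each of these calls was lost with DESeq2. In this fit, 0 of 11 tested genes of glutamate and GABA uptake passed in either direction, and their median log2 difference was 0.28 against 0.05 for all genes. Slc1a3, the second glial glutamate transporter, was 3591 CPM at P18, 5203 at P19, 4216 at P23, 3729 at P120 and 5224 at P132. Its juvenile and adult values overlapped, as did those of Glul, glutamine synthetase (2707 to 4681 CPM over the 5 ages). The GABA transporter Slc6a11 was 588, 780 and 456 CPM at the juvenile ages and 1001 and 844 at the adult ages, and the glutamine carrier Slc38a3 was 155, 190 and 65.2 against 407 and 241. Neither passed the test (edgeR adjusted p = 0.894 for Slc6a11 and 0.269 for Slc38a3), although the stages did not overlap.

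For potassium, water and gap junctions, 1 of 16 tested genes was called higher, Kcnj16, and 0 lower, with a median log2 difference of 0.24, beside 0.468% and 0.651% of all tested genes. Its channel partner Kcnj10 was 619, 237 and 456 CPM at the juvenile ages against 276 and 355 at the adult ages, so its stages overlapped. Gja1, the gap junction protein connexin 43, was 2446, 3803 and 3955 CPM at the juvenile ages and 4553 and 4500 at the adult ages (log2 difference 0.42, SE 0.46, edgeR adjusted p = 0.99). Among 16 tested receptors and calcium genes, 0 were called. Gabrg1, a GABA-A receptor subunit, was 92.9, 128 and 109 CPM against 199 and 314 (log2 difference 1.15, SE 0.41, edgeR adjusted p = 0.215).

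Of 28 intermediate filament and reactive genes, 11 had enough counts for the 5-age fit. S100a10 and Serpina3n were called higher and 0 lower, beside 0.468% and 0.651% of all tested genes. The median log2 difference was 0.995, against 0.05 for all genes. Gfap itself differed by 1.20 (SE 0.39, edgeR adjusted p = 0.127) and S100b, a calcium-binding protein of astrocytes, by 0.77 (SE 0.39, edgeR adjusted p = 0.662). In 6 of the 11 genes both adult ages lay above the 3 juvenile ages, where 12.8% of all tested genes did so and 8.79% lay below. The adult ages alone could meet the count filter, as with Serpina3n (0, 29.2 and 0 CPM at the juvenile ages). The filter thus partly set the 6 of 11 and the median. The gene lists were drawn up with earlier results of these data known, so these counts are descriptions.

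The enzymes of one-carbon, aldehyde and antioxidant metabolism had 24 tested genes, with 0 called higher and 1 lower (0.468% and 0.651% of all tested genes). In 11 of the 24, both adult ages were above all juvenile ages, and in 0 below, where 12.8% of all tested genes lay above and 8.79% below. The metallothioneins, which bind zinc and copper, were among them. Mt1 was 6997 CPM at P18, 17089 at P19 and 13930 at P23, against 30793 at P120 and 29852 at P132. Mt2 was 1207, 3763 and 4325 CPM at the juvenile ages and 10379 and 8756 at the adult ages, and Mt3 was 5821, 8378 and 6454 against 16944 and 11371. Log2 differences were 1.26 for Mt1 (SE 0.63, edgeR adjusted p = 0.647), 1.60 for Mt2 (SE 0.50, edgeR adjusted p = 0.0945) and 1.05 for Mt3 (SE 0.55, edgeR adjusted p = 0.693), and none passed. In Astro-juv the summed level of the list was also lower at P18, P19 and P23 (23007 to 39058 CPM) than at P120 and P132 (50200.5 to 73072 CPM). Aldh1a1, a retinaldehyde dehydrogenase, was called lower, at 61.9 CPM at P18, 197 at P19 and 21.7 at P23, against 10.2 at P120 and 22.1 at P132. Its P23 value (1 UMI) lay between the adult values, so the stages overlapped.

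In cholesterol synthesis, 0 of 19 tested genes were called, with a median log2 difference of -0.11, and Hmgcs1, which makes the precursor of mevalonate, was 217 to 470 CPM over all 5 ages. In lipid transport, 1 of 19 was called higher, Them4, and 0 lower. Of all tested genes, 0.468% were called higher and 0.651% lower. Apoe, the main lipid carrier that astrocytes secrete, was 11425, 9830 and 15690 CPM at the juvenile ages and 9536 and 8679 at the adult ages (log2 difference -0.41, SE 0.57, edgeR adjusted p = 0.99). Fads1, a fatty acid desaturase, was 61.9, 142 and 217 CPM against 306 and 423 (log2 difference 1.34, SE 0.40, edgeR adjusted p = 0.0716). Of 19 genes of glycolysis, lactate and glycogen, 0 were called.

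Among 26 tested Notch, Sox and other astroglial regulators, 0 were called in the 5-age fit (all tested genes: 0.468% higher and 0.651% lower), with a median log2 difference of 0.01. Sox9, a transcription factor of the astroglial lineage, was 402, 656 and 608 CPM at the juvenile ages and 928 and 960 at the adult ages (log2 difference 0.73, SE 0.38, edgeR adjusted p = 0.697). Hopx, a homeodomain protein also found in stem cells, was called higher against P19 alone. Its level was 341 CPM at P18, 43.8 at P19 and 152 at P23, against 395 at P120 and 210 at P132, so the stages overlapped. Of 22 growth factors and receptors, Nnat alone was called. In the neuron list, 8 of 18 genes had enough counts, of which Prox1 and Nrgn were lower and 0 higher. Of all tested genes, 0.651% were lower and 0.468% higher. The median log2 difference of the 8 was -1.44. Ages of 1 stage alone could meet the count filter, so the filter could partly set this median. Of 16 tested synaptogenic and secreted matrix genes, 0 were called.

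Next, Astro-adult was described against Astro-juv at the same age, where both came from the same libraries. The clusters were drawn on these genes, so no test was made. Of 3082 genes with a mean of 50 CPM or more over both clusters, 151 were higher in Astro-adult at each of the 5 ages and 235 lower. None was higher by more than 1 on the log2 scale (with 10 CPM added) at all ages, and 7 were lower by that much. Of these 7, Myoc, Serpinf1, Prss23 and Tnc had 0 UMIs in Astro-adult at P23, and the first 3 also at P18, so their ratios there rest on the added 10 CPM and the zeros do not show absence.

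Myoc, which encodes the secreted glycoprotein myocilin, had 0 UMIs in Astro-adult at P18, P19, P23 and P120 and was 12.9 CPM at P132. In Astro-juv it was 40.1, 133, 41.3, 1518 (32 UMIs) and 227 CPM at those ages. Serpinf1, the secreted pigment epithelium-derived factor, was 0 to 32.8 CPM in Astro-adult and 128 to 617 CPM in Astro-juv, with log2 ratios from -4.63 to -2.30. Prss23, a secreted serine protease, had log2 ratios from -2.51 to -1.62. The matrix genes Tnc (tenascin C, log2 ratios -3.73 to -1.04) and Ncan (the proteoglycan neurocan, -1.97 to -0.98) were lower too, as were the Notch-related ligand Dner (-2.69 to -1.03), the death receptor Tnfrsf21 (-3.25 to -0.98), the homeobox gene Msx1 (-2.40 to -0.95), the retinoid carrier Rlbp1 (-2.86 to -0.92) and Aldh1a1 (-1.73 to -0.91). Gfap and Aqp4 belonged to this set, at log2 ratios of -2.75 to -1.14 and -2.04 to -1.06. In Astro-adult, Tnfrsf21 and Msx1 had 0 UMIs at P18 and P23, and Rlbp1 had 0 at P18. Their ratios there, which include the lowest of each, rest on the added 10 CPM. In Astro-juv at P120, Prss23, Tnc, Tnfrsf21, Msx1, Rlbp1 and Aldh1a1 rested on 1 to 5 UMIs, so those ratios are imprecise.

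Among the genes higher in Astro-adult, Spry2, an inhibitor of receptor tyrosine kinase signalling, was 1053 CPM at P18, 729 at P19, 348 at P23, 560 at P120 and 244 at P132. In Astro-juv it was 371, 288, 190, 142 and 138 CPM, so Astro-adult was the higher at every age. Notch2, a Notch receptor, was 134 to 386 CPM in Astro-adult and 47.4 to 113 in Astro-juv, with log2 ratios from 0.67 to 2.79. The zinc transporter Slc39a1 had log2 ratios of 0.72 to 1.85, and the zinc finger gene Zscan26 of 0.91 to 2.15. The remaining genes by the same rule were Stmn1 (which destabilises microtubules, log2 ratios 0.86 to 2.66), Slc24a5 (0.78 to 1.87), Gpld1 (0.71 to 1.57), Acp1 (0.67 to 1.61), Pdcd4 (0.65 to 3.47), Cbx3 (0.60 to 5.23), Slitrk2 (0.59 to 0.99) and Phkg1 (0.56 to 0.90). The 9 Astro-juv cells at P120 held 0 UMIs of Stmn1, Pdcd4 and Cbx3, which sets their ratios there. They held 1 UMI each of Notch2, Slc39a1, Zscan26, Slc24a5 and Gpld1, so the P120 ratios of these genes are imprecise, among them the 2.79 of Notch2. In Astro-adult at P18 and P23, Zscan26, Slc24a5, Gpld1 and Pdcd4 rested on 3 to 5 UMIs. Slc39a1 and Stmn1 are uncertain too, with 26.4% and 19.9% of their 31-base words in Slc39a1-ps and Gm11223.

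**Figure D5:**
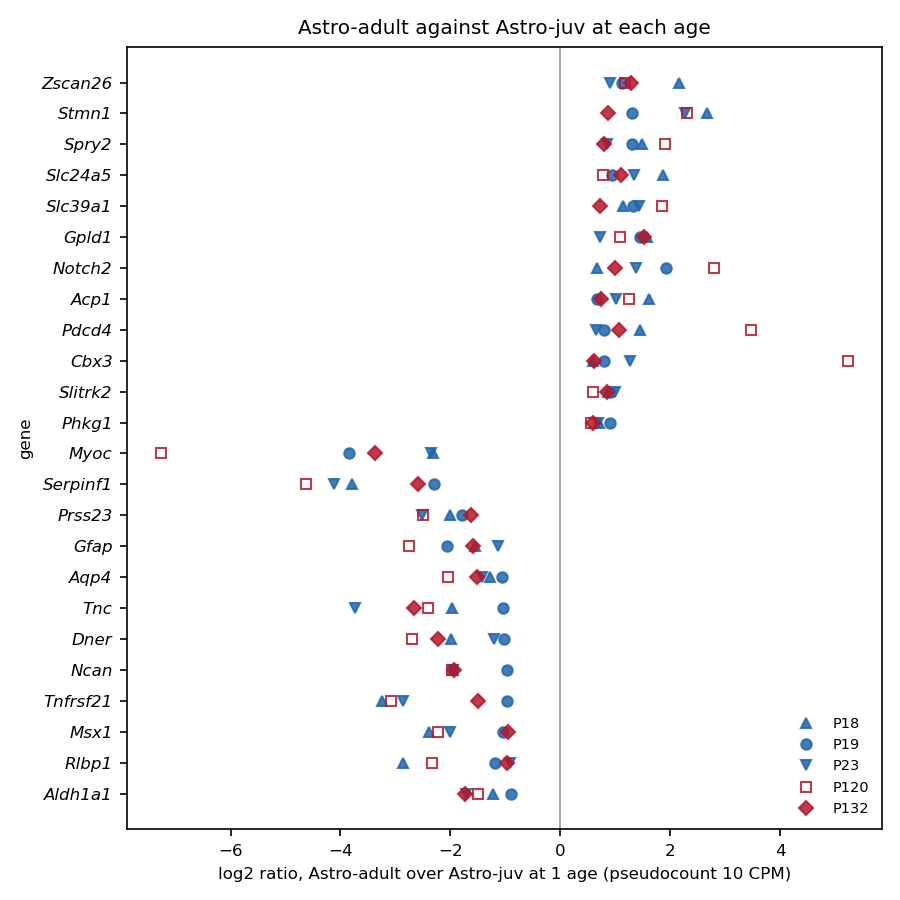
Log2 ratio of Astro-adult over Astro-juv at each age (horizontal axis, 10 CPM added to both) for the 12 genes most steadily higher and the 12 most steadily lower, 1 point per age. P120 is drawn open because Astro-juv held 9 cells there, and Myoc and Serpinf1 lie farthest to the left.

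Among the listed regulators, Id1, Id2 and Id3, known targets of BMP signalling, were lower in Astro-adult at all 5 ages, with log2 ratios of -2.42 to -0.76, -1.48 to -0.49 and -2.28 to -0.43. Nfia and Nfib, nuclear factor I proteins that promote astrocyte genes, were higher at all 5 ages, by 0.18 to 1.16 and 0.06 to 1.08. Across 3694 genes, the correlation of log levels between Astro-adult and Astro-juv was 0.77 at P18, 0.94 at P19, 0.85 at P23, 0.73 at P120 and 0.94 at P132. Between Astro-adult and RGL it was 0.38, 0.69, 0.71, 0.84 and 0.76 in the same order, so at P120 it was higher with RGL than with the 9 Astro-juv cells. It was 0.47 to 0.55 between Astro-adult and OPC. With Astro-juv and RGL the lowest value was at the age with the smallest sum. With OPC it was not (0.474 at P18, 0.465 at P19). The 2 clusters of 1 age share their library.

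Whether the adult minus juvenile change differed between Astro-adult and Astro-juv was tested with age as a block, on 9 sums of 10 or more cells. Astro-juv at P120 was not among them, so the block took up the Astro-adult sum of P120. The adult side of this test was thus P132 alone. Of 8520 genes, edgeR called 0 (0.0%), with 258 at an unadjusted p under 0.05, and DESeq2 called 0. Tmsb10 had the smallest p, with a log2 difference of changes of -2.54 (SE 0.61, edgeR adjusted p = 0.293). In Astro-juv, Tmsb10 was 198 CPM at P18, 40.8 at P19 and 104 at P23, against 131 at P132, and its 9 cells at P120 were not in the fit. The median over all genes was 0.28 with TMM scaling and 0.10 with RLE scaling, a shift of the whole scale between them. With RLE scaling 1 gene was called, and without P19 there were 6.

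The same test against OPC, with age as a block, called 9 of 4643 genes (0.194%), 3 higher (0.0646%) and 6 lower (0.129%). Sox11 fell in Astro-adult but was 247 to 443 CPM in juvenile OPC and 282 and 299 CPM in adult OPC, a log2 difference of changes of -3.19 (SE 0.53, edgeR adjusted p = 8.66e-06). Tmsb10, Basp1, Marcksl1, Meg3 and Hist3h2ba were the others with a lower change, as detailed among the results for a closer look. Cd9, a tetraspanin, was 863 to 1008 CPM in juvenile OPC and 220 and 288 in adult OPC, whereas in Astro-adult it was 43.5 to 186 CPM at juvenile ages and 158 and 135 at adult ages (log2 difference of changes 2.32, SE 0.48, edgeR adjusted p = 0.00184). Without the age block Sox11 alone was called, and DESeq2 called 1 gene, again Sox11. With sums thinned to the shallowest, the Sox11 call was lost. Cells holding RNA of another cell type were not left out in this test.

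Ranked by variance over mean, single Astro-adult cells varied most in a few abundant RNAs. At equal relative variation this ratio rises with the mean, and no such trend was removed, so the ranking favours abundant RNAs. Among 361 genes with 0.2 UMIs or more per thinned cell at every age, the variance was a median of 1.09 times the mean. The nuclear RNA Malat1 had the highest lowest rank, with a variance over mean of 9.31 at P18, 23.2 at P19, 26.5 at P23, 50.8 at P120 and 13.7 at P132. Its mean was 84.5 UMIs per thinned cell at P120 and 23.9 at P132, with the juvenile ages at 40.2 to 66.7. Cst3, the secreted protease inhibitor cystatin C, had 2.84 to 14.7, and Actb, cytoskeletal actin, 2.51 to 8.51. The mitochondrial transcripts mt-Co1, mt-Atp6 and mt-Co3, the metallothioneins Mt1 and Mt3, the lipid carrier Apoe and the peptide processing enzyme Cpe completed the 10. At P23, where there were 15 cells, mt-Atp6 reached 34.3, against 2.76 to 3.28 at the other ages.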

How the data were processed

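The authors deposited whole-number UMI counts per gene and cell, with a table of each cell's age, line and cluster name. The labels state 10X Genomics Chromium kit version 2, and the submitters' processing notes name Cell Ranger and mm10, without versions. How the authors filtered and clustered cells, and with which annotation, is not given in the sources used here. No doublet caller was run. Counts were summed over Astro-adult cells of each age (libraries of 1 age together) and tested with edgeR 4.0.16 (TMM, filterByExpr, glmQLFit and glmQLFTest, two-sided, with estimateDisp), with DESeq2 1.42.0 as an alternative. In the main fits edgeR's prior degrees of freedom were infinite, so the spread came from a trend shared across genes. A gene's own spread between pools then had no weight. Standard errors were taken from the log2 difference and the F statistic. The minimum was 20 cells per age. The planned interaction tests needed 2 juvenile ages with it, which was not met, so they and a second stage fit used 10 cells. The scripts were tested on simulated counts. The members and lists were chosen with earlier results of these data known. Named genes had a mean of 50 CPM or more, an adjusted p under 0.05 and, for stage, ages that did not overlap. They were the 10 largest each way (5 for interactions), of which 1 gene is not reported here. Label numbers within an age mark parts to which cells are not assigned, so age was the block.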

Additional observations from a re-analysis of the deposited data

Results flagged for a closer look

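The change from juvenile to adult ages differed between Astro-adult and OPC in 9 genes, by edgeR's test of the interaction with Benjamini-Hochberg adjustment. A positive value means a higher adult minus juvenile change in Astro-adult. The values were -3.19 for Sox11 (adjusted p = 8.66e-06), -1.95 for Tmsb10 (0.000945), -2.67 for Basp1 (0.00919), -3.37 for Hist3h2ba (0.012), -2.39 for Meg3 (0.0142) and -2.05 for Marcksl1 (0.0308). They were 2.32 for Cd9 (0.00184), 2.47 for Hmgcs1 (0.0109) and 1.39 for Cd81 (0.0235).

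Meg3, a long noncoding RNA of neurons and glia, was 186, 87.5 and 65.2 CPM in juvenile Astro-adult cells and 34.1 and 42.6 in adult ones. In OPC it was 172 to 370 CPM at the juvenile ages and 901 and 459 at the adult ages. Hist3h2ba, a histone gene, rested on 3 to 13 UMIs per age in Astro-adult and shares 32.9% of its 31-base words with Hist3h2bb-ps, so it is uncertain. Hmgcs1 was 217 to 470 CPM in Astro-adult at all ages, and in OPC 123 to 155 CPM at the juvenile ages and 36.9 and 21.3 at the adult ages. Cd81, a tetraspanin, was 1177 to 2064 CPM in Astro-adult at all ages and fell in OPC from 2380 to 3566 CPM to 744 and 1323 CPM.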

How the results depend on the processing

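Against P19, the 41 calls (24 higher, 17 lower) became 0 (0 and 0) with no filter, 6 (3 and 3) with DESeq2, and 20 (10 and 10) without cells holding RNA of another type. RLE scaling, other library sizes, thinned sums and either P132 library alone gave 32 to 46 calls. With 10 or more cells there were 32 lower calls. That 5-age fit called 55 genes (23 higher, 32 lower), 14 (3 and 11) with DESeq2, 2 (0 and 2) with thinned sums, which left 490 genes to test, and 18 to 48 with an age left out (9 to 20 higher, 8 to 33 lower). For Astro-adult v Astro-juv, 0 calls became 1 (lower) with RLE and 1 (lower) with thinned sums, and 0 to 6 with an age left out (0 to 4 higher, 0 to 2 lower). Against OPC, 9 calls (3 higher, 6 lower) became 1 (0 and 1) with no filter, 1 (0 and 1) with DESeq2 and 3 (0 and 3) with thinned sums. They were 4 to 12 with an age left out (0 to 5 higher, 3 to 9 lower). Without the replicate block 1 gene was called against OPC (0 higher, 1 lower) and 0 against Astro-juv, where the block changed no call. Other causes were not tested. The test against P19 could not be made without P19 or with either adult age left out, nor the test against Astro-juv without P132.

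No named gene changed direction in any alternative. For the stage genes this was largely set in advance, since they were named only where the ages did not overlap. Of 99 gene and alternative pairs of the P19 test, 75 kept the call and 24 lost it. In the 5-age fit 200 of 241 kept it, and against OPC 38 of 87. Leaving out cells of over 3 times the median UMIs removed no Astro-adult cell, so it repeated the P19 and 5-age fits. For each of their 11 and 20 named genes, the pair of this setting was thus kept in advance. The adult minus juvenile difference in the share of Astro-adult was 65.6 to 88.1 percentage points under every setting with astrocyte clusters as the denominator, and 18.8 as a share of all cells. Of the 10 most variable genes, 8 stayed among the first 10 without thinning. P18 and P23 hold few UMIs, and this limits what their zeros show.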
